A study of Homo sapiens with 2 samples.

Results

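The replication-dependent histone genes are the clustered genes whose products package newly copied DNA. They were taken by name from the gene annotation as the protein-coding H1-1 to H1-6, H2AC, H2BC, H3C and H4C genes of chromosomes 1 and 6, which gave 65 genes of 20136 protein-coding genes. Of these, 63 carry current names, and HIST2H2AA3 and HIST1H4B keep older names in the annotation used. There were 6 H1, 17 H2A, 16 H2B, 13 H3 and 13 H4 genes, 13 of them on chromosome 1 and 52 on chromosome 6. No measured value entered the choice of genes.

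Chromatin accessibility was profiled by ATAC-seq, in which the transposase Tn5 cuts open DNA and leaves sequencing adapters, in G401, an established malignant rhabdoid tumor line of the kidney that lacks SMARCB1. The control culture was given the solvent DMSO, and the treated culture was given MAK683, an inhibitor that binds the EED subunit of the Polycomb complex PRC2, at 3 µM for 3 days. The study asked how chromatin opening changes once PRC2 is inhibited. There was 1 library per group and no separate culture or clone to compare it with, so no test was possible. Intervals of heights and of log2 ratios of single genes or summed stretches cover counting error of tags only. The Wilson intervals of shares and order-statistic intervals of medians are taken over genes, many of which share a peak. No interval covers variation between cultures.

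Histone genes of this kind are switched on as cells enter S phase, in nuclear bodies that gather the coactivator NPAT around the clusters. Their messages have no poly(A) tail and no introns in most cases, and end in a short stem-loop that the protein SLBP binds for cutting, export, translation and decay. The core histones H2A, H2B, H3 and H4 form the nucleosome, and the linker histone H1 binds the DNA that enters and leaves it.

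The genes lie in 6 loci, defined by gaps of over 200 kb between neighbouring start sites. Locus 1 spans chr1:149783925-149859515 and holds 11 genes, and locus 2 holds the pair H2AC25 and H2BC26 at chr1:228645574-228645804. On chromosome 6, locus 3 holds H2AC1 and H2BC1 at chr6:25726790-25727005, locus 4 holds 29 genes at chr6:26018015-26285762, locus 5 holds 5 at chr6:27100574-27114885, and locus 6 holds 16 at chr6:27775707-27861203. All coordinates are hg19 (GRCh37) transcription start sites (TSSs).

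The defining 3′ feature was present throughout. The search took 16 bases that start with GG, end with CC and have fully paired 6-base arms, with G-T pairs allowed. The 4-base loop had to hold T as its first base and again 2 bases on. Such a stem-loop began 23 to 68 bases after the stop codon in 65 of 65 histone genes. The same search found one in 25 of 19914 other coding genes (0.126%), among them the histone genes H2AX, H4C16, H3-4 and H3-7. The 3 commonest forms are shown because they separate H4 from the other classes. Capitals mark the paired arms, in the letters of the gene's own strand.

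39 genes of all classes but H4: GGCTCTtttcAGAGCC

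8 genes of H1, H2A, H2B and H3: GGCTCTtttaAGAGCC

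8 genes of H4: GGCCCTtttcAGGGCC

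All 13 H4 genes had arms that begin with GGCCC, of which 4 carried the loop tttt and 1 the loop tctc, and no H1, H2A, H2B or H3 gene did. Sharing went further in the proteins. By the annotated coding sequences the 65 genes encode 35 distinct proteins, of which 12 of 13 H4 genes encode a single one of 103 residues. H4C7 encodes a shorter H4 of 98 residues. The 13 H3 genes encode only 2 proteins, whereas the 6 H1 genes encode 6.

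Upstream sequence set the classes apart in another way. The 250 bases before each TSS were searched on both strands for 4 short motifs, counted independently of one another. The TATA box was searched as TATAAA. The box bound by NF-Y was searched as CCAAT. The octamer, bound by OCT1 (the product of POU2F1), was searched as ATTTGCAT. The AC box of H1 genes was searched as AAACACA. The TATA box was in 43 of 65 histone promoters against 9.40% of all coding promoters, and 35 had it on the sense strand between 40 and 20 bases before the TSS against 3.87%. The CCAAT box was in 55 of 65 against 34.2%, with only 4 of the 13 H4 promoters holding it. The octamer was in 12 of 17 H2A and 12 of 16 H2B promoters and in no H1, H3 or H4 promoter, against 1.53% of all promoters. The AC box was in all 6 H1 promoters and in no other histone promoter, against 3.70%. Windows of divergent H2A and H2B genes overlap, so a shared octamer counts for both, and the start of HIST1H4B in this annotation may lie inside the transcript. The annotated start of HIST2H2AA3 lies upstream of the point that matches the start of its identical copy H2AC19. Its window held neither a TATA box nor a CCAAT box, and that of H2AC19 held both. Base composition was lower in GC, with a median of 43.6% and 9 CpG dinucleotides against 63.2% and 18 over all coding promoters.

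H2A and H2B genes often lie back to back. In 10 such pairs the TSSs were 194 to 251 bp apart (median 242 bp), so that a single stretch serves both genes. The whole stretch between the starts is shown for 4 pairs, on the plus strand of GRCh37, with the TATA box, CCAAT box and octamer on either strand in capitals. H2BC12/H2AC12 had the tallest histone promoter peak of the DMSO library, and H2AC1/H2BC1 had no peak. H2BC13/H2AC13 and H2AC14/H2BC14 are the most alike of the 10 in sequence and had unequal peaks.

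H2BC12/H2AC12 at chr6:27114635-27114884: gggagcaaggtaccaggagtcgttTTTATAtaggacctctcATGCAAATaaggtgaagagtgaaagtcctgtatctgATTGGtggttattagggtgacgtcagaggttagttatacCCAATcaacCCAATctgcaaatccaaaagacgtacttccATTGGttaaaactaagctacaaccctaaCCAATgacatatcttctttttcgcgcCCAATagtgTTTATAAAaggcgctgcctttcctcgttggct

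H2AC1/H2BC1 at chr6:25726791-25727004: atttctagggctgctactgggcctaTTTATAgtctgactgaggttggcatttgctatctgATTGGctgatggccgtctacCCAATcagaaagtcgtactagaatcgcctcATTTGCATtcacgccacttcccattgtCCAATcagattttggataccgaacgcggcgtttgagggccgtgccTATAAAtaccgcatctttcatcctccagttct

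H2BC13/H2AC13 at chr6:27775708-27775950: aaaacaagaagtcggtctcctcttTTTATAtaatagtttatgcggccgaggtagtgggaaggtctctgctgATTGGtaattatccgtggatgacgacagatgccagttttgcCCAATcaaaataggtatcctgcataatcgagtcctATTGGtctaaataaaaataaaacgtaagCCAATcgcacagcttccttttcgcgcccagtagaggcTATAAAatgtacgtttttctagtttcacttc

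H2AC14/H2BC14 at chr6:27782556-27782799: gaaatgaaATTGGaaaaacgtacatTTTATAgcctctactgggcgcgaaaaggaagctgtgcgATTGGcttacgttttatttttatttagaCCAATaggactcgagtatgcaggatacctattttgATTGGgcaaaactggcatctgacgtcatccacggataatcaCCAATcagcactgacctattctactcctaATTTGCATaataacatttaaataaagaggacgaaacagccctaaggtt

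Aligned from the H2B to the H2A gene, the last 2 stretches were identical at 212 of 246 aligned positions (86.2%), against a median of 54.7% over the 45 comparisons of the 10 stretches. H2AC14/H2BC14 holds the octamer letters and H2BC13/H2AC13 does not. The only other pairs without these letters, H2AC25/H2BC26 and H2AC15/H2BC15, had DMSO peaks of 55 and 45 tags. H2AC1/H2BC1, the testis-expressed pair, holds an octamer, 2 TATA boxes and 3 CCAAT boxes.

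For H1, 150 bases before the TSS are shown for the gene with the tallest DMSO peak of its class and for one with no peak, each on the gene's own strand with the same motifs and the AC box in capitals. H1-4 encodes a widely expressed linker histone and H1-6 the testis linker histone H1t. The DMSO peak of H1-4 reached its height 1634 bp downstream of the H1-4 start, near the start of H2BC5, which shares the peak.

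H1-4 at chr6:26156407-26156556 (plus strand): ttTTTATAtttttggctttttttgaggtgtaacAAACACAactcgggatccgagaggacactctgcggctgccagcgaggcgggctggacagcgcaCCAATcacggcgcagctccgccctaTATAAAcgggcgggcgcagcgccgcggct

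H1-6 at chr6:26108364-26108513 (minus strand): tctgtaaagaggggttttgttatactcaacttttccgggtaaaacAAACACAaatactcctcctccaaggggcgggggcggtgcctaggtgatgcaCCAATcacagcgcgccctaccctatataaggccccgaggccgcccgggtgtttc

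H1-6 has the AC box and a CCAAT box in this window, as H1-4 does, and lacks the exact letters TATAAA. It holds the similar letters tatataag near its start, which the search did not count.

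Accessibility was read from the deposited peaks. A promoter counted as open where a called peak came within 1 kb of the TSS, and its height is the tallest pileup of those peaks per 1000000 tags left after filtering (RPM). The libraries held 16598348 (DMSO) and 18265284 (MAK683) such tags, and the lowest called peak had 6 tags in each. SMARCB1, PTPRC, a leukocyte gene, and ALB, a liver gene, had no promoter peak in either library. VIM, a mesenchymal gene, had 44 tags with DMSO and 41 with MAK683, and EPCAM, an epithelial gene, had 12 and 11.

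Most histone promoters were open in both libraries. A peak was present at 58 of 65 promoters with DMSO (89.2%, 95% Wilson interval 79.4% to 94.7%) against 69.2% of all coding genes. With MAK683 it was 56 of 65 (86.2%, 75.7% to 92.5%) against 73.8%. All 13 genes of chromosome 1 and 45 (DMSO) or 43 (MAK683) of the 52 genes of chromosome 6 had one. Overall 56 genes had a peak in both libraries, 2 with DMSO alone (2.04% of all coding genes) and none with MAK683 alone (6.67%).

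**Figure D1:**
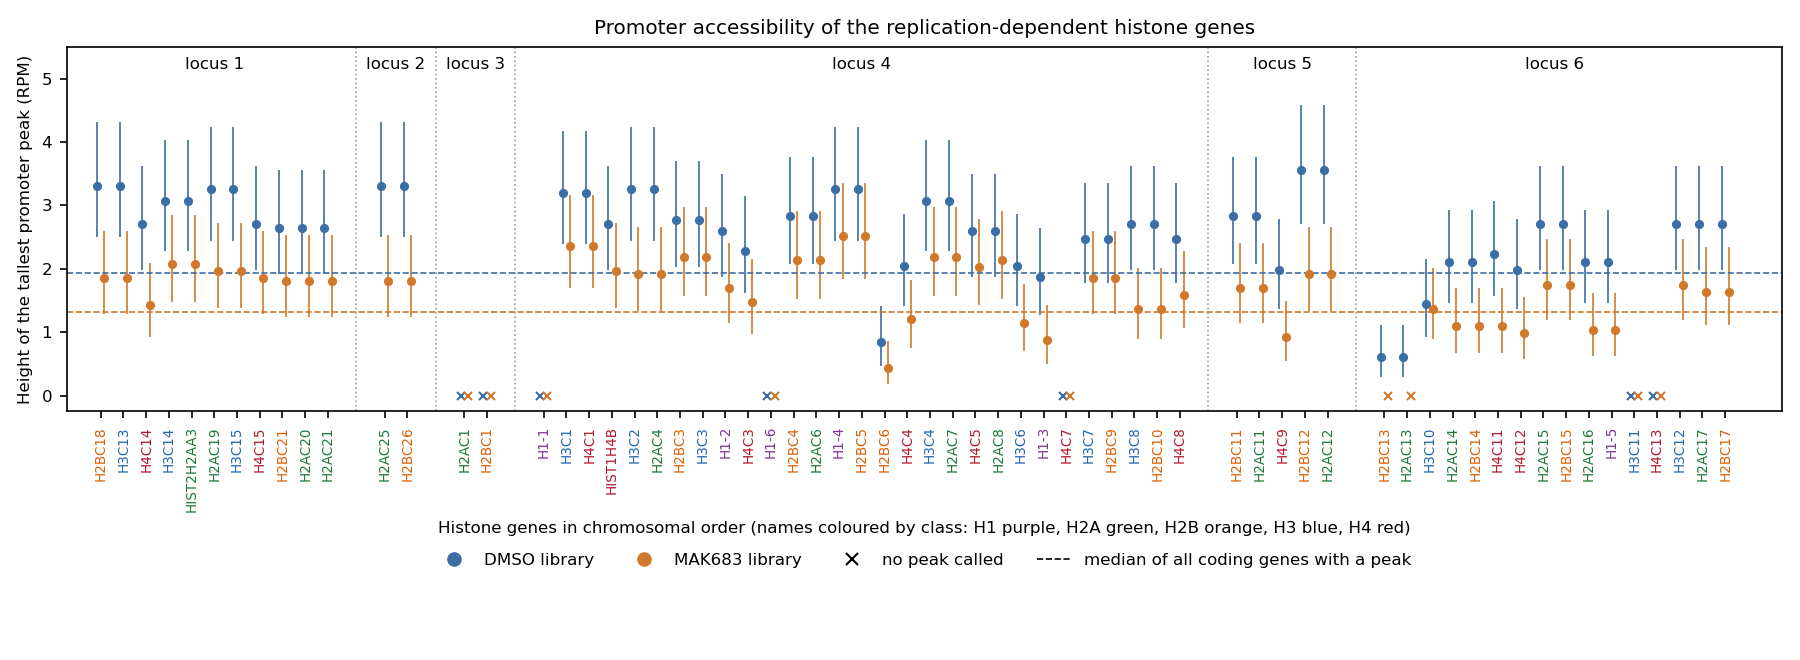
Height of the tallest promoter peak in RPM for each of the 65 histone genes in chromosomal order, with DMSO in blue and MAK683 in orange. Bars are 95% exact counting intervals, crosses mark genes with no called peak and dashed lines are the medians of all coding genes with a peak. Of the 58 DMSO points 53 lie above the blue line, and 7 genes have crosses in both colours.

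The open histone promoters were tall and alike. Their median height was 2.71 RPM with DMSO and 1.81 RPM with MAK683, against 1.93 and 1.31 RPM over all coding genes with a peak. The median member stood at percentile 81.9 of DMSO heights and 77.6 of MAK683 heights. Heights varied by 24.7% (coefficient of variation over 58 genes) with DMSO, against 43.1% over all coding genes, and by 26.1% against 42.4% with MAK683. Many of these histone genes share a peak and so entered with the same height. The spread was not computed with shared peaks counted once. Their peaks were also long, with medians of 3673 bp and 2399 bp against 1657 bp and 1350 bp.

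Long peaks often ran across neighbouring genes. The 58 promoters of the DMSO library fell into 36 separate stretches of joined peaks, 20 of which held 2 or 3 histone genes, so genes of one stretch can share a single height. The peak covered the TSS itself at 55 of 58 genes with DMSO and 51 of 56 with MAK683. Its summit lay within 500 bp of the TSS at 39 genes in each library. Only 45 of the 58 genes with DMSO, and 47 of the 56 with MAK683, had any peak with its summit inside the window. Some heights, above and below, were thus reached at a neighbouring gene. The share of all coding genes with such a summit was not counted. Whether histone promoters were open more often than others under this requirement was therefore not tested.

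Among the linker histones, H1-4 had the tallest peak, with 54 tags with DMSO (3.25 RPM) and 46 with MAK683 (2.52 RPM). The summits of its peaks lay 1634 bp (DMSO) and 1902 bp (MAK683) downstream of its start, near that of H2BC5, which shares the same peaks. H1-3 had the lowest called H1 peak, with 31 tags (1.87 RPM) and 16 tags (0.876 RPM). H1-2 had 43 and 31 tags, with summits 1365 bp and 1351 bp downstream of its start, and H1-5 had 35 and 19 in a stretch it shared with H2AC16. H1-1 and H1-6 had none.

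Of the H2A genes, H2AC12 was tallest with 59 tags (3.55 RPM) with DMSO and 35 tags (1.92 RPM) with MAK683. H2AC14 and H2AC16 were lowest among those open in both libraries, with 35 tags each with DMSO and 20 and 19 with MAK683. Genes of one protein did not all have peaks of one height. H2AC11, H2AC13 and H2AC15 encode the same H2A, and their DMSO peaks held 47, 10 and 45 tags. H2AC16 and H2AC17 encode it too, but the summits of their DMSO peaks, of 35 and 45 tags, lay 2267 bp and 2448 bp from their starts, beside those of H1-5 and H3C12.

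Of the H2B genes, H2BC12 shared the peak of H2AC12. H2BC6 had the lowest H2B peak seen in both libraries, with 14 tags (0.843 RPM) and 8 tags (0.438 RPM). H2BC4 encodes the same protein as H2BC6 and had 47 tags (2.83 RPM) with DMSO. The DMSO counting interval of H2BC6 ends at 1.42 RPM, and that of H2BC4 begins at 2.08 RPM. H2BC10 encodes this protein as well, but the summit of its peak of 45 tags lay at -1497 bp from its start, beside H3C8.

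H3C13 was the tallest H3 promoter with DMSO at 55 tags (3.31 RPM), and had 34 (1.86 RPM) with MAK683, although the summits lay 1571 bp and 1583 bp downstream of its start, near that of H2BC18, and copies of its promoter elsewhere add to the uncertainty. H3C10 was the lowest with 24 tags (1.45 RPM) and 25 tags (1.37 RPM), and was the 1 open member whose raw tag count was not lower with MAK683. H3C11 had no peak, although it encodes the same H3 protein as H3C10 and 8 other genes.

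The H4 genes show the same spread behind one product. H4C1 was tallest with 53 tags (3.19 RPM) with DMSO and 43 (2.35 RPM) with MAK683, in a stretch it shared with H3C1. H4C9 and H4C12 were lowest among the open ones with 33 tags each (1.99 RPM), and 17 and 18 with MAK683. H4C13, which encodes the same protein, had no called peak, and H4C7 had none either.

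In all, 7 genes had no peak in either library, namely H2AC1, H2BC1, H1-1, H1-6, H4C7, H3C11 and H4C13. They include all 3 genes known mainly from the germline, H1-6, H2AC1 and H2BC1. The nearest DMSO peak lay 5638 bp from H2AC1, 5853 bp from H2BC1 and 3287 bp from H1-6. It lay 2435 bp from H1-1, 2130 bp from H4C7, 4115 bp from H3C11 and 5303 bp from H4C13. Their promoters held the exact letters TATAAA in 6 of 7 cases and the CCAAT box in 6 of 7, against 37 and 49 of the 58 promoters with a DMSO peak, and a median of 10 CpG dinucleotides against 9. A peak too low to be called at this depth would look the same as a closed promoter.

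H2BC13 and H2AC13 were the 2 genes with a DMSO peak alone. It was a single peak of 303 bp with 10 tags (0.602 RPM) that began 70 bp downstream of the H2AC13 start and covered neither TSS, and the nearest MAK683 peak was 1686 bp from H2AC13. A peak of 10 tags is close to the lowest called peak, and whether the pair differed between the libraries cannot be read from it. Their close relative H2AC14/H2BC14 had 35 tags with DMSO and 20 with MAK683.

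Every histone promoter open in both libraries was lower with MAK683 after scaling for depth, as were most coding promoters. Scaled heights were lower at 56 of 56 histone promoters against 87.4% of the 13518 coding genes with a peak in both. In tags without depth scaling, 55 of 56 were lower against 79.1%. Scaled heights were at least 1.5-fold lower at 34 of 56 against 37.2%. None was at least 1.5-fold higher, against 3.48% of all. The 95% counting interval of the log2 ratio lay below 0 at 26 genes against 21.5%, and above 0 at none against 0.917%. The median log2 ratio of height, MAK683 over DMSO, was -0.68 (95% order-statistic interval -0.76 to -0.56), a ratio of 0.624, against -0.48 for all coding genes. Relative to that shift of all genes the histone median was -0.20.

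**Figure D2:**
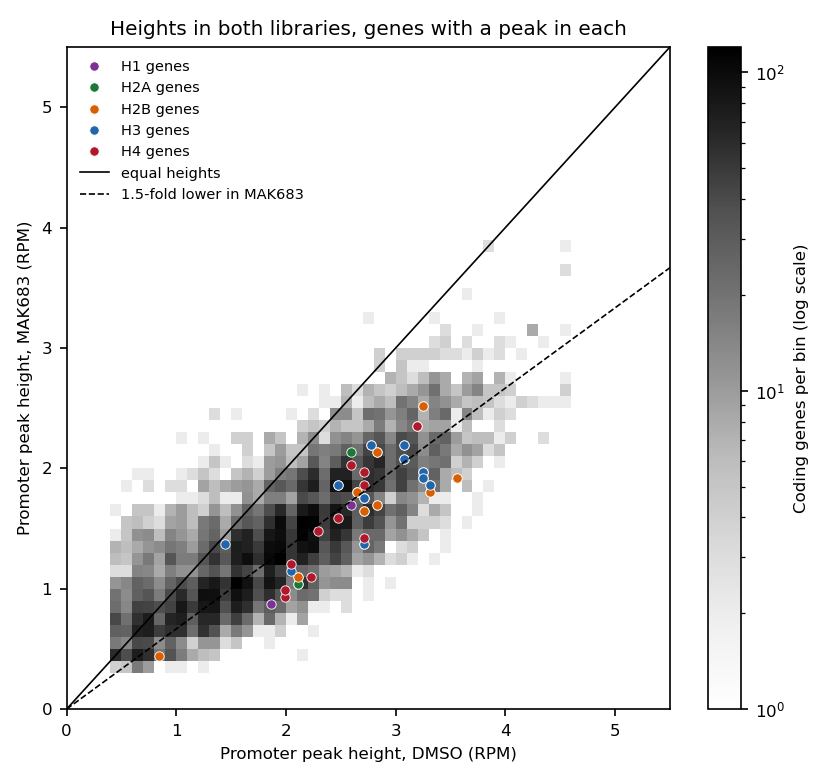
Promoter peak height with DMSO (x) and MAK683 (y) in RPM, with all 13518 coding genes open in both libraries as grey bins and the 56 histone genes as points coloured by class. Genes that share peaks lie on one another. All histone points are below the solid line of equal heights, and 34 are on or below the dashed line of a 1.5-fold lower height.

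The fold count depended on the scaling, and the distance from other genes was not seen at equal height in the middle range of histone heights. When heights were divided by the median promoter height of each library, 40 of 56 histone genes were lower against 42.4% of all coding genes, and none was at least 1.5-fold lower against 3.50%. Their median log2 ratio was then -0.14 against 0.06 for all genes, the same distance as before. In the middle range of histone heights with DMSO, 2.47 to 3.10 RPM, 29 histone genes had a median log2 ratio of -0.55, and so did 2651 other coding genes of equal DMSO height. Of the 29, 12 were at least 1.5-fold lower (41.4%), against 46.5% of the others. Histone genes below and above this range were not compared at equal height. An effect of MAK683 and a difference between these 2 libraries cannot be told apart. In a bulk library, fewer cells with an open promoter and less opening per cell cannot be told apart either.

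Counting each stretch once gave the same direction. All 35 stretches present in both libraries were lower, against 87.4% of all coding genes, which were not joined into stretches. The summed tallest peaks of the 35 held 1499 tags with DMSO and 1051 with MAK683, a log2 ratio of -0.65 (-0.76 to -0.54). No such sum was made over all promoters. A sum gives tall peaks more weight, so this ratio is not comparable with the median of all coding genes. Peaks covered more bases with DMSO at 34 of 35 stretches, with medians of 3456 bp and 2688 bp. The exception was the H2BC21, H2AC20 and H2AC21 stretch, with 4479 bp and 4663 bp. At 17 stretches the MAK683 library had more and shorter peaks than the DMSO library, as at H3C8 and H2BC10, where 1 peak of 5969 bp stood against 4 covering 3940 bp. Neither count was made over all promoters. Over all coding genes with a peak, the tallest peaks were also shorter with MAK683, with medians of 1657 bp (DMSO) and 1350 bp (MAK683).

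The lowest ratios were at H4C9 (33 to 17 tags), H1-3 (31 to 16 tags), H4C11 (37 to 20 tags), and H2AC16 with H1-5 (35 to 19 tags). The last of these compares 2 sites, since the DMSO summit lay beside the H1-5 start and the MAK683 summit beside that of H2AC16. Their ratios ran from 0.468 at H4C9 to 0.493 at H2AC16. The log2 ratio was -1.09 (95% counting interval -1.96 to -0.22) at H1-3 and -1.03 (-1.81 to -0.24) at H4C11. At the other end stood H3C10, with -0.08 (-0.89 to 0.73). Even these intervals overlapped.

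By class, the median log2 ratio was -0.81 for 4 H1, -0.72 for 15 H2A, -0.73 for 14 H2B, -0.60 for 12 H3 and -0.64 for 11 H4 genes. The range within each class was wider than these steps. Among H2A genes it ran from -1.02 at H2AC16 to -0.28 at H2AC8, and among H2B genes from -0.99 at H2BC10 to -0.34 at H2BC3, both with summits over 1 kb from their starts. Among H3 genes H3C8 was lowest at -0.99, and among H4 genes H4C5 was highest at -0.35. The 95% order-statistic intervals of the H2A, H2B, H3 and H4 medians overlapped, and H1 had too few genes for one.

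**Figure D3:**
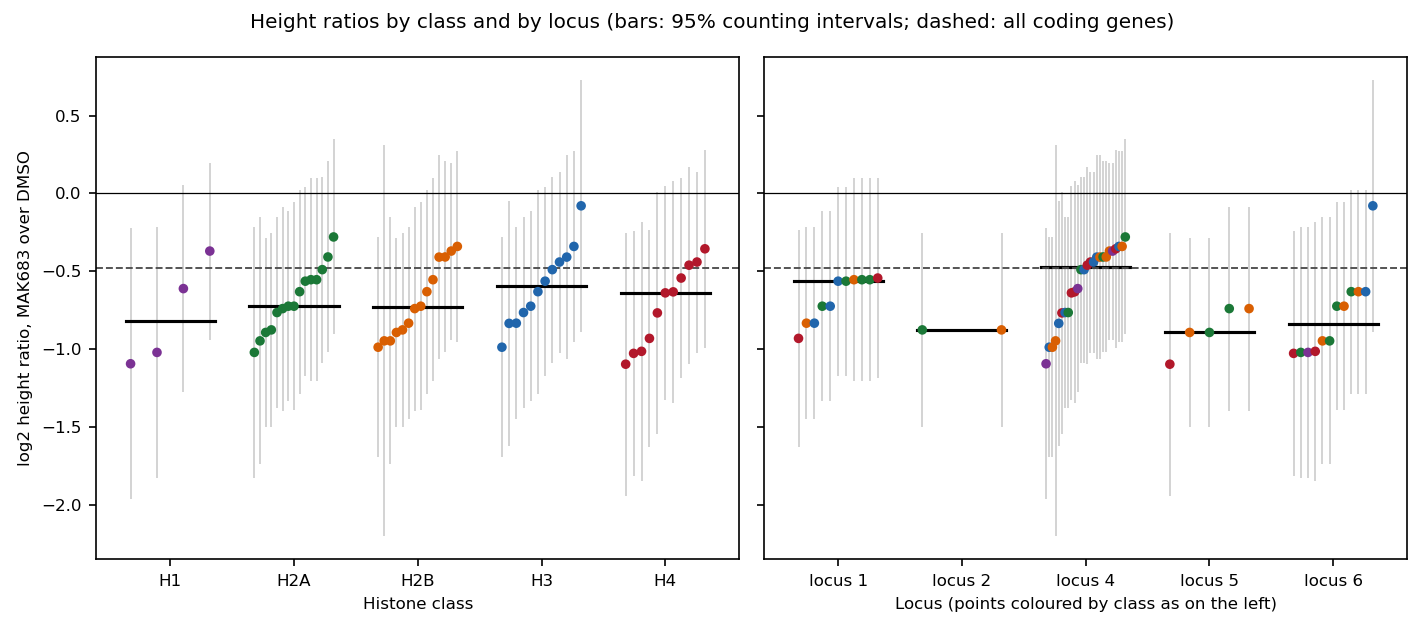
Log2 ratio of promoter height, MAK683 over DMSO, for the 56 histone genes open in both libraries, by class (left) and by locus (right, without locus 3, which has no peak). Bars are 95% counting intervals, thick lines are medians and the dashed line is the median of all coding genes at -0.48. All points lie below 0, the class medians lie between -0.81 and -0.60, and locus 4 has the median nearest to the dashed line.

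Medians of loci ranged more widely than those of classes. In locus 4 the median log2 ratio was -0.47 over 26 genes, close to that of all coding genes, and in locus 1 it was -0.56 over 11 genes. It was -0.83 over 12 genes in locus 6, -0.89 over 5 genes in locus 5, and -0.88 for the single stretch of locus 2. Summed over stretches, tags went from 757 to 568 in locus 4 (-0.55, -0.71 to -0.40), from 139 to 83 in locus 5 (-0.88, -1.27 to -0.49) and from 254 to 166 in locus 6 (-0.75, -1.03 to -0.47). These intervals overlap. Locus 6 also held the lowest peaks, with a median DMSO height of 2.11 RPM against 2.71 RPM in locus 4 and 3.07 RPM in locus 1.

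Of the 10 divergent pairs, 9 had a DMSO peak and 8 a peak in both libraries, with a median log2 ratio of -0.73 over their 16 genes. For the 40 open genes outside such pairs it was -0.63. The summit lay between the starts of 6 pairs with DMSO and of 3 with MAK683. At H2BC12/H2AC12 the summit was at the same base in both libraries, at -98 bp from the H2BC12 start and -153 bp from the H2AC12 start (negative is upstream).

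**Figure D4:**
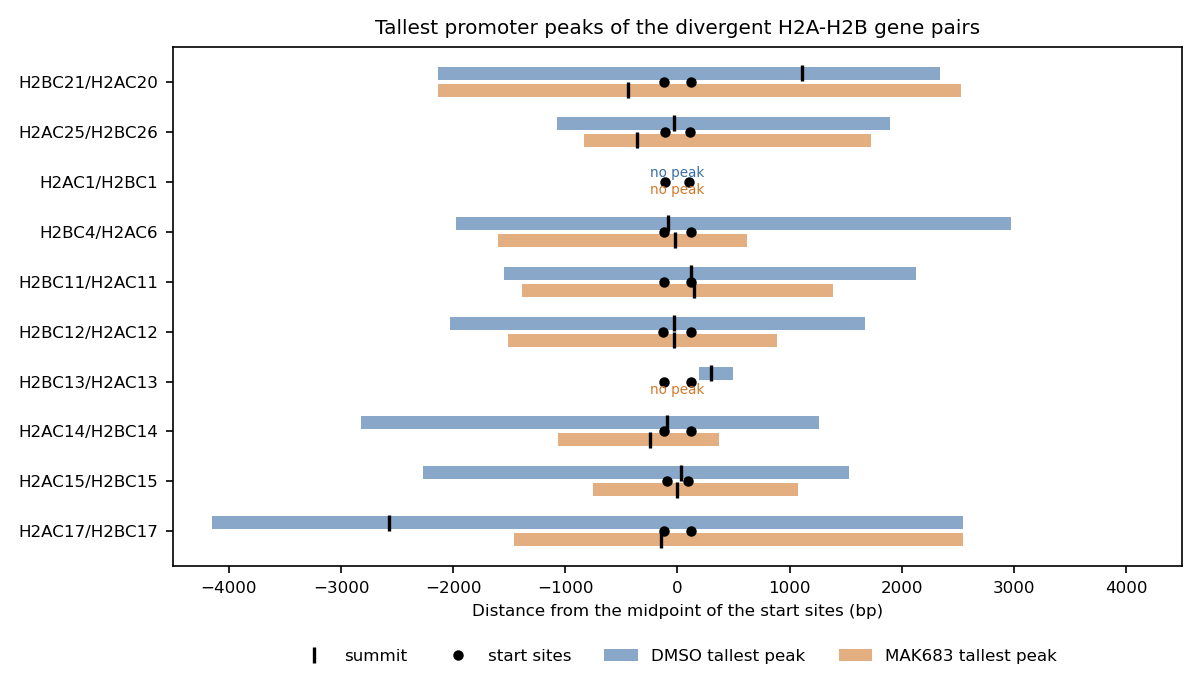
Extent of the tallest promoter peak of each divergent H2A-H2B pair, in bp from the midpoint of the start sites along the plus strand, with DMSO in blue and MAK683 in orange. Ticks are summits and dots are the start sites, 194 to 251 bp apart. Peaks lie across both starts at 8 pairs, H2AC1/H2BC1 has none, and the short DMSO peak of H2BC13/H2AC13 begins beside the starts.

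Several genes cannot be read apart, because 10 of the 65 have a copy of their promoter elsewhere that is at least 95% identical over 600 bp or more. H4C14 and H4C15 are identical over 1001 bp, as are H3C14 and H3C15, and H2AC19 and HIST2H2AA3. H4C11 and H4C12 are 98.1% identical over 679 bp, and H2BC18 and H3C13 have copies elsewhere on chromosome 1. Reads of such copies can be placed at either, so their single values are uncertain. H4C14 and H4C15 had 45 tags each with DMSO and 26 and 34 with MAK683.

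The proteins that transcribe histone genes and process their messages had open promoters throughout, at 26 of 26 genes in both libraries. Their median log2 ratio was -0.54, with 10 of 26 at least 1.5-fold lower (38.5%) and none at least 1.5-fold higher, shares near the 37.2% and 3.48% of all coding genes. NPAT, the coactivator of the clusters, had 56 and 50 tags (-0.30), and CASP8AP2, its partner in the histone body, had 52 and 44 tags (-0.38). HINFP, the H4 promoter factor, had 44 and 33 tags (-0.55). SLBP, which binds the stem-loop, had 34 and 23 tags (-0.70), and its interval of -1.47 to 0.06 included 0.

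The other 9 that were at least 1.5-fold lower were POU2F1, YY1, ZNF473, LSM11, SYMPK, CPSF1, CPSF2, CSTF3 and CSTF2T. POU2F1, which encodes the octamer factor OCT1, had 53 and 31 tags (-0.91, interval -1.55 to -0.27). ZNF473 and LSM11, of the U7 snRNP machinery that cuts histone messages, had 39 and 20 tags (-1.10) and 39 and 24 tags (-0.84). Only CCNE1 (18 and 22 tags) and TENT4A (39 and 49 tags) were higher with MAK683, by 0.15 and 0.19 on the log2 scale, both with intervals across 0.

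Other gene lists show where the histone genes stood. The 11 replication-independent histone genes, which are expressed outside S phase, were all open in both libraries with a median log2 ratio of -0.56. Among them H2AX, whose message can also end in the stem-loop, had 36 and 40 tags (0.01). The 20 other coding genes between the chromosome 6 histone genes had 12 peaks in each library, and 11 open in both had a median of -0.57. One of these, ENSG00000282988, shares the start of H2AC7.

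The 24 DNA replication genes, which are also expressed around S phase, had a median log2 ratio of -0.37 over 23 genes open in both libraries. GINS2, a subunit of the replicative helicase complex, had a peak of 21 tags with DMSO alone. The 78 cytosolic ribosomal protein genes open in both libraries, which are also highly transcribed, had a median of -0.69. Of these, 52 were at least 1.5-fold lower (66.7%, against 37.2% of all coding genes). The histone median of -0.68 was near that of the ribosomal protein genes. Relative to the median of all coding genes, the medians were -0.20 for the histone genes, -0.21 for the ribosomal protein genes, -0.07 for the transcription and processing factors, -0.09 for the replication-independent histone genes and 0.10 for the DNA replication genes. The lists were not compared at equal DMSO height. Their median DMSO heights were, in the same order, 2.71, 1.93, 2.35, 2.23 and 2.05 RPM.

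**Figure D5:**
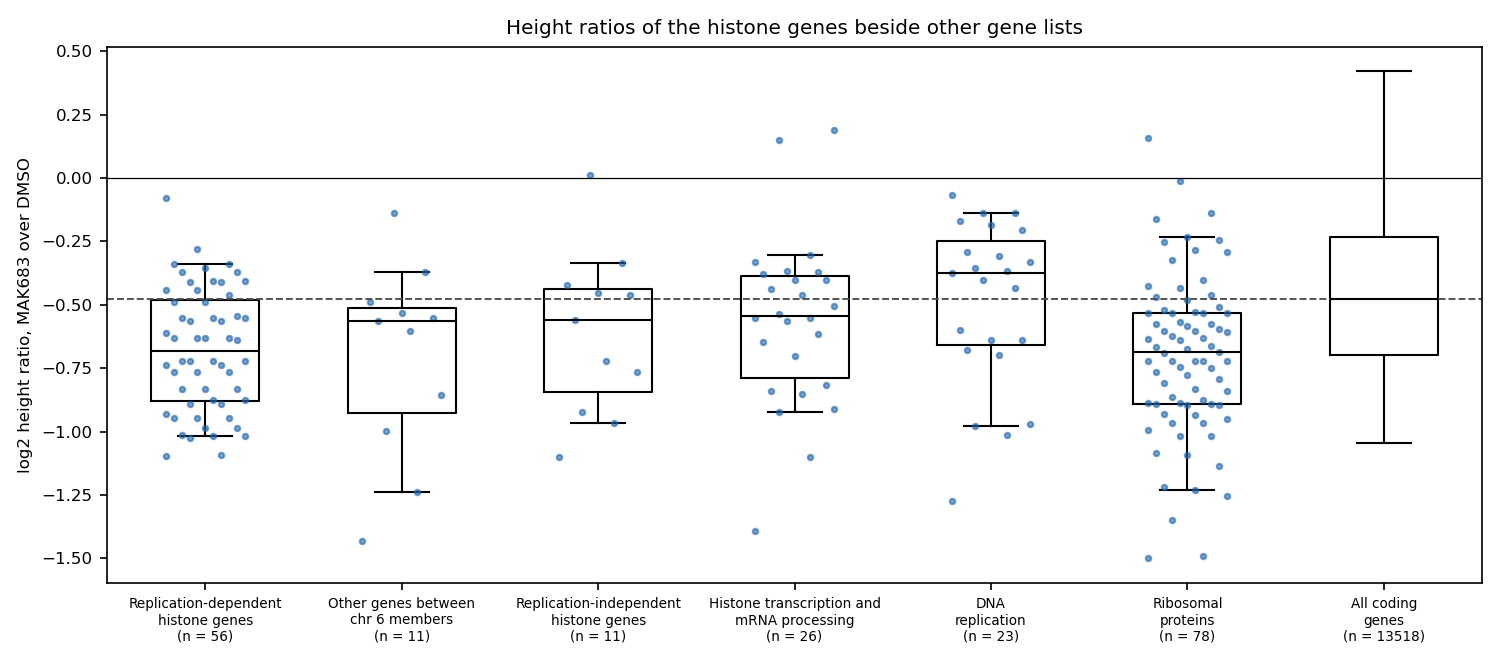
Log2 ratio of promoter height, MAK683 over DMSO, for the histone genes, 5 comparison lists and all 13518 coding genes open in both libraries. Boxes are quartiles with the median, whiskers reach the 5th and 95th percentiles, points are genes and the dashed line is the median of all coding genes. The histone and ribosomal protein medians, -0.68 and -0.69, lie lowest, and the DNA replication median, -0.37, lies highest.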

How the data were processed

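Per the labels and the study's methods, the authors trimmed ATAC-seq reads (paired, 150 bp) with Trim-galore, aligned them to hg19 with Bowtie2 and called peaks on each library. Per the file headers, MACS 2.1.1.20160309 read single-end tags, shifted them by -100 bp, extended them to 200 bp, kept 1 per position and used no control, no local background and a q cutoff of 0.05. The study names another MACS version. The deposited pileup is a signal in whole tags, unscaled. Fold enrichment, as deposited, is a ratio of pileup to one genome-wide background. The authors' files also hold a −log10 q-value and −log10 p-value for each peak, and all of these vary with depth.

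Pileups were divided by the tags after filtering. Each gene of GENCODE 44 (lifted to GRCh37) had 1 TSS, that of its canonical transcript. A peak counted within 1 kb, and peaks were joined when they overlapped by 1 bp. Height intervals are exact Clopper-Pearson, log2 intervals use the Poisson error of both counts, and medians have order-statistic intervals. Without molecular identifiers, PCR copies cannot be separated from molecules. Sequences were read from GRCh37 with pysam 0.24.0, and copies were found with blastn 2.17.0. The log2 intervals were tested on simulated tags with Poisson error alone. The choice of the tallest peak in each library was not simulated. Python 3.11.15 with pandas 2.3.3 was used.

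The genes and lists were chosen with earlier results of these data known. Named genes were those without a peak, the tallest, lowest and most and least changed of each class, the germline genes and the 5 lowest ratios. Of the processing factors, NPAT, CASP8AP2, HINFP, SLBP and those past 1.5-fold were named. CCNE1, TENT4A, H2AX, GINS2 and the genes with the same protein were named after their values were seen. The comparison at equal DMSO height was also chosen then.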

Additional observations from a re-analysis of the deposited data

How the results depend on the processing

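The median log2 ratio of the histone promoters stayed below 0 under all 16 settings tried, from -0.72 to -0.14, and no histone gene was at least 1.5-fold higher under any of them. Of 72 values under these settings, 64 stayed within 1.5 times the main count or within the main median's 95% interval. A reversal of sign was possible for the median log2 ratio only, and 0 of its values reversed. Counting promoters that share peaks once left 36 with a DMSO peak and 35 with a MAK683 peak, because fewer units were counted. Of the 35, 22 were at least 1.5-fold lower, against 37.2% of all coding genes, counted singly. Heights in tags without depth scaling gave a median of -0.54, and heights divided by the median promoter height gave -0.14 with 0 genes at least 1.5-fold lower (3.50% of all coding genes). Among members in the interquartile range of DMSO heights, an alternative chosen after seeing the data, the median was -0.55 with 12 of 29 at least 1.5-fold lower (41.4%, against 46.5% of other genes of that height). Asking for a summit inside the window left 45 DMSO and 47 MAK683 promoters. Of the 40 with both, 39 were lower, against 87.7% of all coding genes under this setting. No paired analysis was possible because each group has 1 library. Depth limits single promoters most, since their tag counts leave wide log2 intervals.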

Other observations

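Some histone genes that the naming rule did not take also have the stem-loop. H4C16, an H4 gene of chromosome 12, had 48 tags with DMSO and 38 with MAK683, a log2 ratio of -0.48 (95% counting interval -1.09 to 0.14). H3-4, the testis H3 gene, and H3-7 had no promoter peak in either library, but the H3-7 promoter is 98.6% identical to that of H3C13, so reads can be placed at either and this absence is uncertain. Among the replication-independent histone genes the lowest ratio was at MACROH2A2, which encodes a macroH2A variant, with 37 and 19 tags (-1.10, -1.90 to -0.30). H1-10, a linker histone gene, had 48 and 27 tags (-0.97, -1.65 to -0.29), and H3-3B, for the variant H3.3, had 31 and 18 tags (-0.92, -1.76 to -0.08). H2AZ1 and H2AZ2, for the variant H2A.Z, had 55 and 41 tags (-0.56) and 47 and 41 tags (-0.34), both with intervals across 0. Among the genes that lie between the histone genes of chromosome 6, HFE, an iron regulator, had 27 and 11 tags (-1.43, -2.44 to -0.42), and HMGN4, a nucleosome-binding protein gene, had 39 in each library (-0.14, -0.78 to 0.50).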
